A study of Rattus norvegicus with 6 samples.

Results

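Genes of the axon guidance and cell adhesion families were compared between lidocaine-treated and untreated cells cultured from rat dorsal root ganglia, at 24 hours only. The members are the rows of the authors' normalized table whose symbol begins with one of 25 family prefixes, from the semaphorins, ephrins, netrins and plexins to the cadherins, protocadherins, contactins, neuroligins and claudins, with Cadm2 left out. They numbered 31 of the 2125 genes listed. Sprague Dawley rats weighing 120 g supplied the ganglia, taken at all levels, and the dissociated cells were kept in neurobasal medium with B-27 before total RNA was sequenced. 3 libraries came from cultures exposed to 5 mM lidocaine hydrochloride for 24 hours and 3 from untreated cultures. Lidocaine is a blocker of voltage-gated sodium channels used for local anaesthesia. The labels call the cells neurons, but dissociated ganglia also hold macrophages, fibroblasts, cells of vessels, Schwann cells and satellite glia, and whether a replicate was a separate culture or animal is not stated, so the p-values speak only of the spread among these samples, which may be technical.

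Guidance molecules steer growing axons. Secreted or membrane-bound ligands (netrins, slits, semaphorins, ephrins) bind receptors on the growth cone (DCC and Unc5, Robo, plexins with neuropilins, Eph kinases) that attract or repel it by remodelling its actin. Adhesion molecules hold cells together. Cadherins bind like with like in the presence of calcium, immunoglobulin-type molecules join axons to each other and to the Schwann cells that wrap them, neuroligins and leucine-rich repeat proteins bridge synapses by binding presynaptic partners, and claudins form the strands of tight junctions. In the ganglion and its nerve these genes are divided among neurons, glia, perineurium and vessels.

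The table lists genes that its header calls significant, and every member had therefore been chosen by the authors on these same libraries. Over all genes tested below, the smallest rise was 1.0019 and the smallest fall −1.0002 on the log2 scale. The list thus appears to be cut at 2-fold, which sets the smallest change that a member can show. Of the 217 protein-coding genes that carry the same prefixes in a rat reference gene table (RefSeq, assembly GRCr8), 31 had a row, and 9 of the 25 prefixes had none. The prefixes without a row included those of the slits, Robo receptors, neurexins, EphA and EphB receptors, L1cam, Chl1 and neurofascin. A gene without a row was not analysed here. Recovered reads in the listed genes came to 2453051 to 2631083 in the lidocaine libraries and 2710887 to 3592141 in the control libraries, a share of each library whose full depth is not known here. Listed markers of non-neuronal cells moved in the same cultures. All 30 listed of 48 such markers were lower with lidocaine, against 1 of 12 sensory neuron markers listed, Elavl4, which was also lower. No listed marker was at 0 in all libraries of a group. In bulk samples fewer cells of a type and less RNA per cell cannot be told apart.

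Most of the listed guidance and adhesion genes were lower after lidocaine, and a smaller set, led by the claudins Cldn4 and Cldn3, the protocadherin Pcdh17 and the cadherin Cdh4, was higher. Of the 31 members, 29 had a mean of at least 10 normalized reads and were tested (limma, Benjamini-Hochberg over the 1851 listed genes kept). All 29 passed the threshold of 0.05, where 99.5% of all genes tested did, so passing says nothing particular about them. 8 were higher and 21 lower. Among all genes tested 30.9% were called higher and 68.6% lower. The median log2 fold change of the members was −1.44, beside −1.25 over all genes tested, and the groups did not overlap in 29 of 29 members, where 98.4% of all genes tested did not. At least 4-fold differences were seen in 4 members, Slitrk6, Cldn19, Cldn1 and Cadm4, all of them lower, where 21.7% of all genes tested were at least 4-fold lower and 5.08% at least 4-fold higher. This count also depends on the scaling: under each of 2 rescalings described next, Slitrk6 was the 1 member at least 4-fold lower, and all 8 members that rose were at least 4-fold higher. Of all 1851 genes tested, 575 were then at least 4-fold higher, as many as rose under the authors' scaling, so this is no trait of the members. At least 4-fold lower were 126 under TMM and 134 under the median of ratios. With 3 libraries against 3, the smallest p an exact permutation test allows is 0.1, and the calls therefore rest on limma's model of the spread. That model shares the spread among genes, and a test without the sharing was not run.

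The split depends on how the libraries are scaled. 2 rescalings computed on the listed genes alone, TMM and the median of ratios, shifted the log2 fold changes upwards by medians of 1.26 and 1.17 over all genes. The median of the members came to −0.16 under TMM and −0.25 under the median of ratios, beside 0.0016 and −0.087 over all genes tested. The 8 members that were higher stayed higher and past the threshold under both. An upward shift cannot turn a rise, so their direction was fixed in advance. Of the 21 that were lower, Efnb2, Sema6a and Cdh15 had positive log2 fold changes under both and Pcdhb11 under TMM, of which Sema6a under TMM passed the threshold (limma, Benjamini-Hochberg adjusted p = 0.0455). The other 17 kept negative log2 fold changes. 11 of them still passed under TMM and 14 under the median of ratios. Ntn1, Cntnap5b and Lrrtm2 no longer passed under either, and Cdh5, Pcdh19 and Ncam2 no longer passed under TMM.

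**Figure D1:**
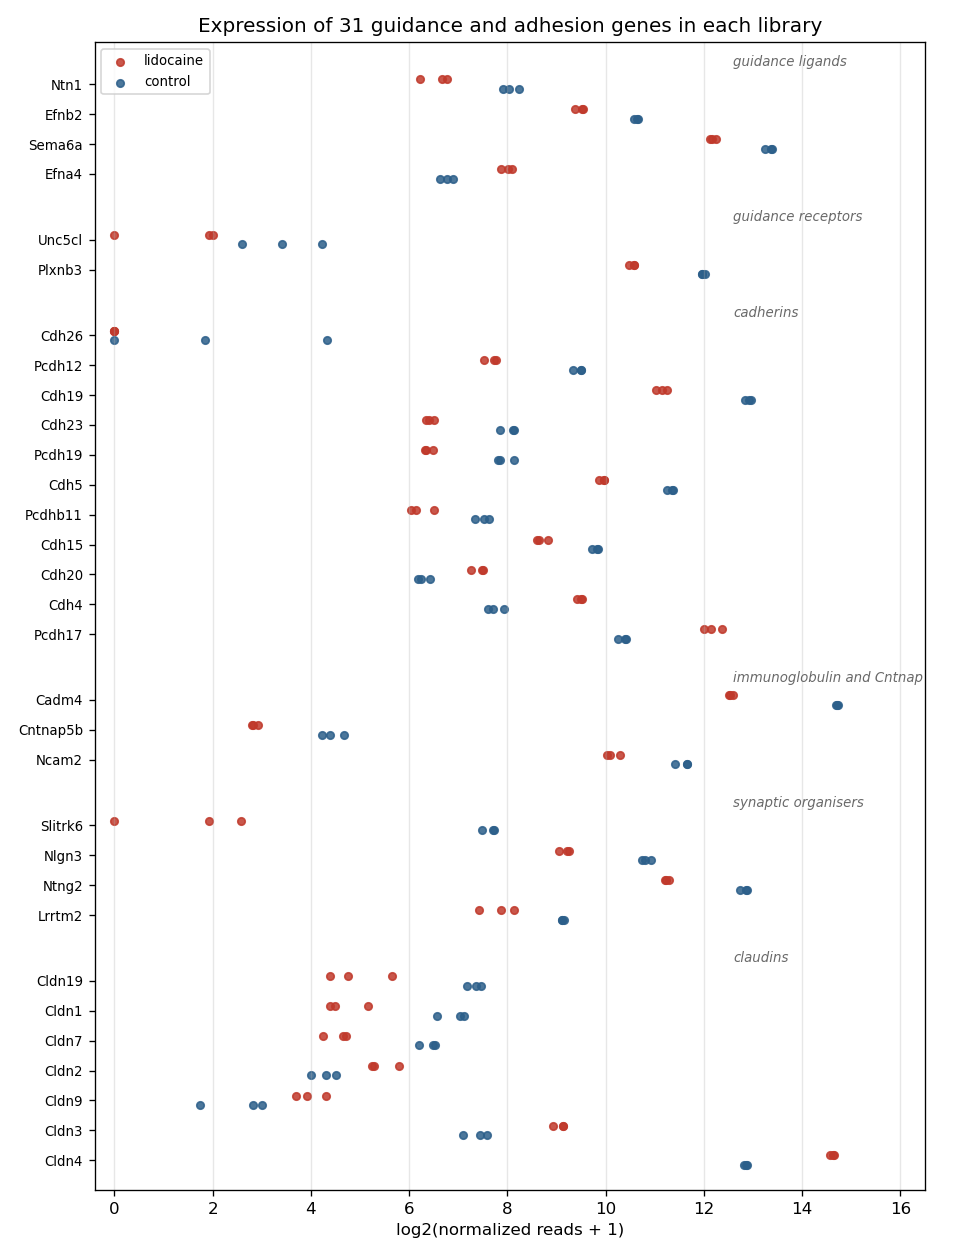
Each dot is 1 library, placed by its log2(normalized reads + 1) on the horizontal axis, for the 31 members grouped by role, with the 3 lidocaine libraries in red above the 3 control libraries in blue. The groups are apart in every member except Cdh26, and 8 genes in 3 role groups (Efna4 among the ligands, Cdh20, Cdh4 and Pcdh17 among the cadherins, and 4 claudins) lie higher with lidocaine.

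Among the guidance ligands, 4 members were listed. 3 fell, although Efnb2 and Sema6a had positive fold changes under either rescaling, and 1 rose. Their summed level was 37.4 to 40.2 FPKM (fragment counts that the authors scaled to gene length and sequencing depth) in the lidocaine libraries and 73.8 to 81.7 FPKM in the control libraries, of which Sema6a made up 79.2% and 84.7%. Sema6a is a transmembrane semaphorin that binds class A plexins. It had 4875, 4608 and 4460 normalized reads in the lidocaine libraries, against 9659, 10564 and 10759 in the control libraries. Every lidocaine library lay below every control library, and the fall under the authors' scaling was 2.22-fold. Ntn1, the secreted netrin that attracts axons through DCC and repels them through Unc5 receptors, had 74, 108 and 100 normalized reads with lidocaine and 239, 259 and 299 in control. It fell 2.83-fold (log2 fold change −1.50 ± 0.17, SE, n = 3 each; adjusted p by limma and Benjamini-Hochberg = 1.6e-05), with no overlap between the groups, but missed the threshold under both rescalings.

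The 2 ephrins moved in opposite directions. Efnb2, a transmembrane ephrin of arteries and growth cones, had 731, 661 and 740 normalized reads in lidocaine libraries and 1626, 1603 and 1528 in control libraries, a 2.23-fold fall under the authors' scaling that turned to 0.12 on the log2 scale under TMM and 0.025 under the median of ratios. Efna4, an ephrin held in the membrane by a lipid anchor, had 273, 234 and 258 normalized reads with lidocaine and 98.5, 117 and 108 in control. It rose 2.35-fold (log2 fold change 1.23 ± 0.13, SE, n = 3 each; adjusted p by limma and Benjamini-Hochberg = 9.38e-06). Because scaling cancels within a library, the ratio of their FPKM levels was compared directly. Efna4 stood at 0.975 to 1.05 times Efnb2 in the lidocaine libraries and 0.168 to 0.203 times in the control libraries. Some difference was given in advance, since the opposite directions of the 2 were known.

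Among the receptor prefixes, Plxnb3 and, by its symbol, Unc5cl had a row; the co-receptor Nrp1, outside the prefixes, is given with the partner genes. Plxnb3, a plexin known in mammals as a receptor of semaphorin 5A, had 1525, 1522 and 1425 normalized reads in lidocaine libraries and 3972, 3977 and 4190 in control libraries. Libraries within each group lay close together, and the gene fell 2.71-fold (log2 fold change −1.44 ± 0.05, SE, n = 3 each; adjusted p by limma and Benjamini-Hochberg = 3.53e-09). Unc5cl, described in the table as an unc-5 family C-terminal like gene, was too low to test. It had 6 recovered reads over the 3 lidocaine libraries and 31 over the 3 control libraries, and in the authors' deposited table its log2 fold change was −2.10 with p = 0.0151. Strandedness of the libraries is not stated by the labels, so reads from a gene and from an antisense partner may not be separated in any of these values.

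The cadherin group was the largest, with 11 members, of which 10 were tested, 7 fell and 3 rose, although Cdh15 had a positive fold change under both rescalings and Pcdhb11 under TMM. Their summed level was 44.8 to 51.5 FPKM in the lidocaine libraries and 66.2 to 71.8 FPKM in the control libraries. Pcdh17, a protocadherin of the delta-2 type that in mice links axon contacts to actin assembly, had the largest rise of all members. It had 5282, 4564 and 4099 normalized reads in the lidocaine libraries and 1212, 1373 and 1353 in the control libraries. The lidocaine libraries were all higher, although they spread more widely than the controls, and the rise was 3.53-fold (log2 fold change 1.82 ± 0.09, SE, n = 3 each; adjusted p by limma and Benjamini-Hochberg = 2.99e-08). Cdh4, the retinal cadherin, a classical cadherin that guides axons in the visual system, had 728, 722 and 679 normalized reads with lidocaine and 242, 210 and 194 in control, a rise of 3.30-fold. Cdh20, a related classical cadherin, rose 2.21-fold, to 153, 179 and 182 normalized reads with lidocaine against 71.5, 85.2 and 74.2 in control.

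Cdh19, a cadherin that marks Schwann cell precursors and glia of the peripheral nerve, was the most abundant listed cadherin per length in control. It had 2434, 2277 and 2096 normalized reads with lidocaine and 7273, 7952 and 7752 in control. The groups were far apart relative to their spread, and the fall was 3.38-fold (log2 fold change −1.76 ± 0.06, SE, n = 3 each; adjusted p by limma and Benjamini-Hochberg = 3.25e-09). Its level averaged 10.8 ± 0.829 FPKM with lidocaine and 35.7 ± 1.74 FPKM in control (SD, n = 3 each). That of Pcdh17 averaged 20.7 ± 2.70 FPKM with lidocaine and 5.75 ± 0.404 FPKM in control. The order of the 2 genes therefore differed between the groups. Pcdh17 was at 1.84 to 2.04 times Cdh19 in each lidocaine library and at 0.157 to 0.164 times in each control library. No scaling of the libraries changes this comparison, but the pair was picked for its opposite directions, so some difference was fixed by that choice. Beside Cdh19, 6 of 12 Schwann cell markers were listed, all lower under the authors' scaling. Their summed level was 55.8 to 57.5 FPKM with lidocaine and 250.2 to 253.8 FPKM in control. Their part in the fall of Cdh19 was not tested.

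Cdh5 and Pcdh12, cadherins known from endothelium, fell. Cdh5, the vascular endothelial cadherin of adherens junctions, had 927, 1001 and 1005 normalized reads with lidocaine and 2426, 2646 and 2601 in control, a 2.61-fold fall that missed the threshold under TMM. Pcdh12, a protocadherin of endothelial cells, had 183, 211 and 217 normalized reads with lidocaine and 649, 726 and 723 in control, a 3.42-fold fall. Of 10 endothelial and mural markers 7 were listed and lower under the authors' scaling. Their summed level was 14.1 to 15.4 FPKM with lidocaine and 40.6 to 44.7 FPKM in control, and their part in these falls was not tested. Cldn5, on that list and within the claudin prefix, had no row. Cdh23, the large cadherin of the tip links between hair cell stereocilia, had 84, 89.8 and 80.3 normalized reads with lidocaine and 230, 279 and 277 in control, a 3.06-fold fall.

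The other tested cadherins fell 2.14-fold to 2.92-fold under the authors' scaling. Pcdh19, a delta-2 protocadherin mutated in a human epilepsy, fell 2.92-fold but missed the threshold under TMM. Pcdhb11, from the clustered beta protocadherins, fell 2.40-fold, which is uncertain because that cluster holds close copies whose reads may be shared, and it came to 0.0016 on the log2 scale under TMM. Cdh15, a cadherin of muscle precursors, fell 2.14-fold but had a positive fold change under either rescaling. Cdh26 was not tested. It was at 0 in all 3 lidocaine libraries and had 3, 0 and 19 recovered reads in the control libraries, so that 1 control library supplied most of its reads and the groups overlapped. Its control mean was 2.46 times a floor of 3 counts in each lidocaine library, with the spread of the controls left out. No lower bound on a fall follows from this. The authors' deposited table gives p = 0.0168. In the reference gene table Cdh26 is the direct neighbour of Cdh4 on chromosome 3, and Cdh4 rose.

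**Figure D2:**
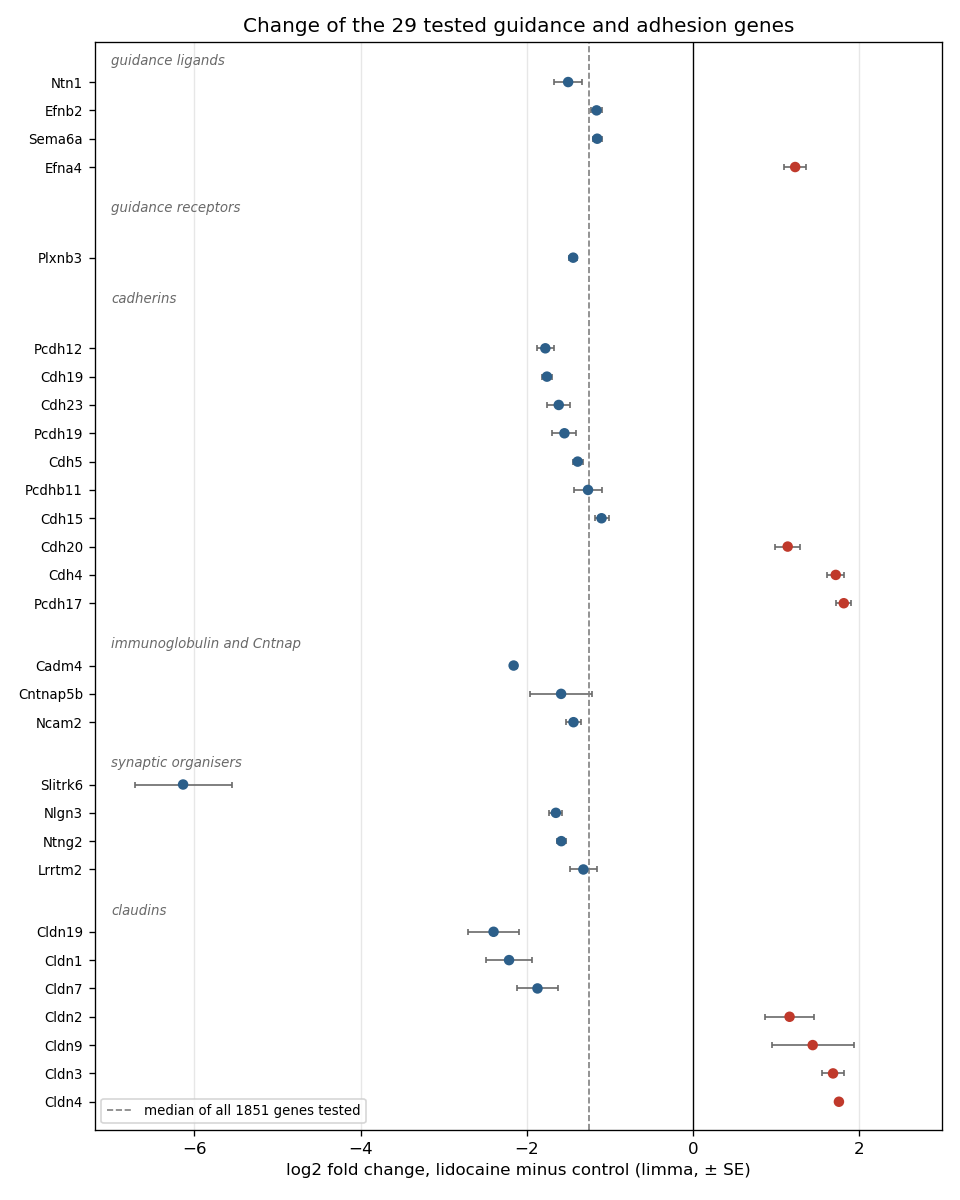
The points are log2 fold changes of lidocaine minus control for the 29 tested members, with the standard error from limma as bars, red where higher and blue where lower; the dashed line is the median of all genes tested, −1.25. Slitrk6 lies furthest from 0 at −6.14, the other members that fell lie between −1.10 and −2.40, and the 8 that rose lie between 1.14 and 1.82; Efnb2, Sema6a, Cdh15 and, under TMM, Pcdhb11 have positive fold changes when the libraries are rescaled.

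The immunoglobulin-type adhesion genes Cadm4 and Ncam2, and Cntnap5b, which shares the contactin prefix but belongs to the neurexin superfamily, fell under the authors' scaling. All 3 kept negative fold changes under both rescalings. Cadm4 had the highest level of them. It is the nectin-like protein through which, in mice, Schwann cells attach along the myelinated stretch of an axon. It had 5940, 6213 and 5855 normalized reads in the lidocaine libraries, against 26524, 26721 and 27061 in the control libraries. Replicates differed little in either group, and the fall was 4.46-fold (log2 fold change −2.16 ± 0.04, SE, n = 3 each; adjusted p by limma and Benjamini-Hochberg = 5.33e-11). By level per length it ranked 45 of the 2125 listed genes with lidocaine, at 87.2 ± 2.96 FPKM, and 5 in control, at 383 ± 4.93 FPKM (SD, n = 3 each). The Schwann cell markers given beside Cdh19 moved with it, and their part was likewise not tested. Ncam2, a homologue of the neural cell adhesion molecule known from olfactory axons, had 1248, 1088 and 1045 normalized reads with lidocaine and 2709, 3208 and 3243 in control, a 2.71-fold fall that missed the threshold under TMM. Cntnap5b, a contactin-associated protein, had at most 6.55 normalized reads in any lidocaine library and 17.8 to 24.4 in control, and its adjusted p of 0.00242 (limma, Benjamini-Hochberg) became 0.0619 when adjusted as if over all 47357 genes of the reference table.

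Each of the 4 listed synaptic organisers fell under the authors' scaling and kept a negative fold change under both rescalings. The fall of Slitrk6, a leucine-rich repeat protein known in mice for innervation of the inner ear, was the largest of any member and the 7th largest of the 1851 genes tested. It had 5, 2.81 and 0 normalized reads in the lidocaine libraries and 178, 208 and 212 in the control libraries. In reads, 8 were recovered over the 3 lidocaine libraries and 591 over the 3 control libraries, and the depth-adjusted level in control was 75.8 times that with lidocaine (95% exact interval 38.2 to 176, counting error only). The limma estimate was −6.14 ± 0.58 on the log2 scale (SE, n = 3 per group; Benjamini-Hochberg adjusted p = 4.22e-06). The size of this fall depended on few reads. Without lidocaine replicate 3, which had none, it was −5.38, with a pseudocount of 8 it was −4.31 and on FPKM values −3.26, all past the threshold. Even in control its level was low, at 0.956 ± 0.0914 FPKM (SD, n = 3).

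Ntng2, a lipid-anchored netrin that does not bind DCC but the synaptic protein Lrrc4, was the most abundant of the 4. It had 2412, 2508 and 2358 normalized reads with lidocaine and 6834, 7423 and 7570 in control, a 3.00-fold fall with no overlap. Lrrc4, which lies outside the families and was looked up after its annotation was seen, fell too, by 1.62 ± 0.11 on the log2 scale (SE, n = 3 each; adjusted p by limma and Benjamini-Hochberg = 4.12e-07). Nlgn3, a neuroligin that binds neurexins and is also made by glia, had 612, 591 and 531 normalized reads with lidocaine and 1719, 1776 and 1947 in control, a 3.14-fold fall. Lrrtm2, a postsynaptic partner of neurexins, had 281, 232 and 172 normalized reads with lidocaine and 550.2, 572 and 555 in control. Its lidocaine libraries spread more than its controls, the fall was 2.49-fold, and under TMM it came to −0.05 on the log2 scale and no longer passed (limma, Benjamini-Hochberg adjusted p = 0.841).

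The claudins differed in direction among themselves. 4 of the 7 listed rose and 3 fell. Their median log2 fold change was 1.16 under the authors' scaling. The 3 that fell kept negative fold changes under both rescalings, and the upward shift could not turn the 4 that rose. Those that rose were Cldn4, Cldn3, Cldn2 and Cldn9. Cldn4, a claudin of epithelial tight junctions, had 24136, 25505 and 25811 normalized reads in the lidocaine libraries and 7556, 7259 and 7467 in the control libraries. Replicates were close in both groups, and the rise was 3.38-fold (log2 fold change 1.76 ± 0.04, SE, n = 3 each; adjusted p by limma and Benjamini-Hochberg = 1.81e-10). It ranked 7 of the 2125 listed genes by level with lidocaine, at 291 ± 9.83 FPKM, and 63 in control, at 84.5 ± 1.53 FPKM (SD, n = 3 each). It made up 97.0% of the summed claudin level with lidocaine and 92.8% in control. Cldn3, its epithelial relative, had 485, 558 and 561 normalized reads with lidocaine and 174, 191 and 135 in control, a rise of 3.22-fold.

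In the reference gene table Cldn3 and Cldn4 are direct neighbours on chromosome 12 with no protein-coding gene between them, and both rose by similar factors. Cldn2, a claudin that forms pores for cations, had 38, 54.3 and 37.1 normalized reads with lidocaine and 21.8, 18.9 and 15.0 in control. Cldn9, known from the inner ear, was lower still, at 12, 18.7 and 14.0 normalized reads with lidocaine and 6.10, 2.37 and 7.02 in control. Both passed in the table as listed. When p-values were adjusted as if over all 47357 reference genes, Cldn2 had an adjusted p of 0.0969 and Cldn9 an adjusted p of 0.438 (limma, Benjamini-Hochberg). Cldn9 also missed the threshold without lidocaine replicate 2, with an adjusted p of 0.0547.

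The 3 claudins that fell had few reads. Cldn19, which seals the myelin of Schwann cells in mice, had 20, 49.6 and 26.1 normalized reads with lidocaine and 164, 143 and 176 in control. One lidocaine library stood above the other 2 but below every control, and the fall was 5.27-fold (log2 fold change −2.40 ± 0.31, SE, n = 3 each; adjusted p by limma and Benjamini-Hochberg = 3.92e-05). Cldn1, the claudin of the perineurial barrier, had 35, 21.5 and 20.1 normalized reads with lidocaine and 93.3, 137 and 129 in control, a 4.63-fold fall. Cldn7, an epithelial claudin, had 24, 25.3 and 18.1 normalized reads with lidocaine and 91.5, 72.2 and 89.2 in control, a 3.66-fold fall. Each of these 3 was below 2 FPKM in the mean of either group, far under Cldn4.

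The most abundant members of the 2 directions changed places. Cldn4 was at 3.23 to 3.51 times the FPKM level of Cadm4 in the lidocaine libraries and at 0.216 to 0.227 times in the control libraries. This ratio is taken within each library, so no scaling of the libraries enters it, and it shows unequal change rather than which of the genes moved.

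**Figure D3:**
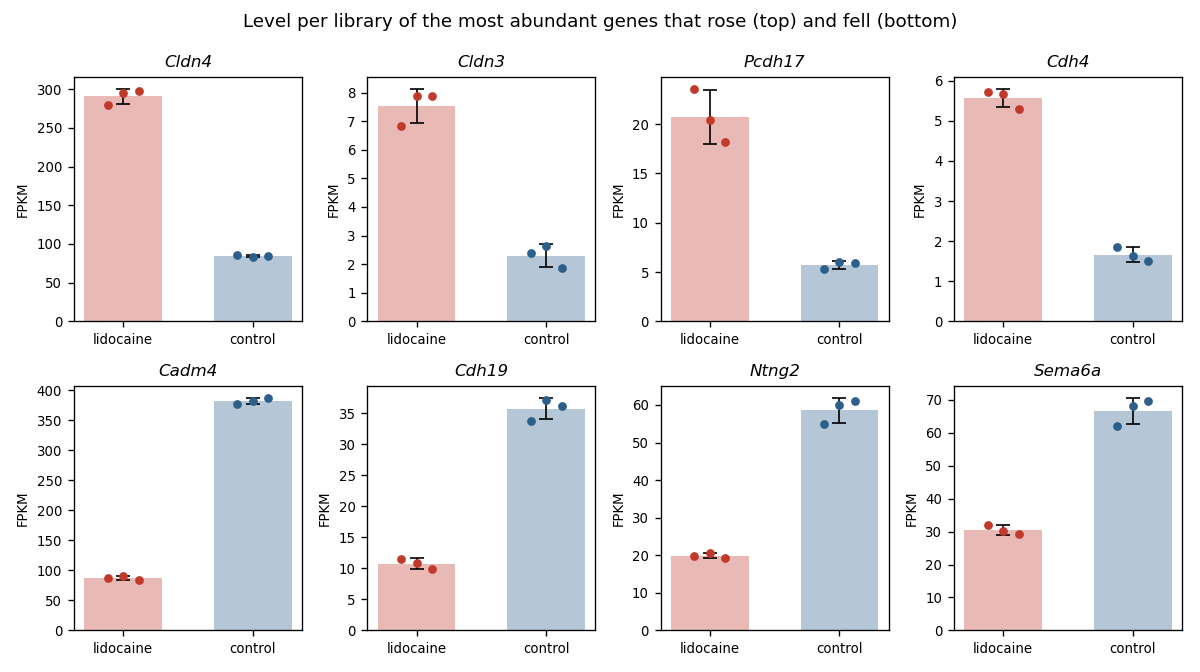
FPKM per library (vertical axes from 0, scales differ between panels) for the 4 members that rose with the highest levels, in the top row, and the 4 that fell with the highest levels, in the bottom row; bars are means, error bars SD over 3 libraries, points single libraries. Cldn4 averages 291 FPKM with lidocaine and 84.5 in control, and Cadm4 87.2 FPKM with lidocaine and 383 in control; Sema6a has a positive fold change under either rescaling.

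Upstream sequence is shown for the members with the largest rise and fall (Pcdh17, Slitrk6) and for 1 gene each of the neighbouring claudin pair and the myelin-side adhesion genes (Cldn3, Cadm4). These are the 250 bases before the annotated start in RefSeq (build GRCr8), 5′ to 3′ on the gene's strand, and capitals mark matches on either strand to the letters searched. Pcdh17 (ENSRNOG00000008970) lies on the plus strand at chr15:66632892-66633141, Cldn3 (ENSRNOG00000046007) on the minus strand at chr12:27346548-27346797, Slitrk6 (ENSRNOG00000022337) on the minus strand at chr15:93984432-93984681 and Cadm4 (ENSRNOG00000024243) on the plus strand at chr1:89202839-89203088.
Pcdh17: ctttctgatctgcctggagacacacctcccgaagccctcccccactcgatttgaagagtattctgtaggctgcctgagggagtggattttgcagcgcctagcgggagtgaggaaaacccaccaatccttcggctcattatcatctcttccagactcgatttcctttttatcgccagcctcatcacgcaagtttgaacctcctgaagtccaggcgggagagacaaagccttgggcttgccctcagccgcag
Cldn3: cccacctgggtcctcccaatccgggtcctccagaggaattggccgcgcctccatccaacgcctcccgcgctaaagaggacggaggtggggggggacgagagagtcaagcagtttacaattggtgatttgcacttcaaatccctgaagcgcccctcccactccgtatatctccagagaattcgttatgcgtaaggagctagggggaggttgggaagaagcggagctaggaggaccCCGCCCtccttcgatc
Slitrk6: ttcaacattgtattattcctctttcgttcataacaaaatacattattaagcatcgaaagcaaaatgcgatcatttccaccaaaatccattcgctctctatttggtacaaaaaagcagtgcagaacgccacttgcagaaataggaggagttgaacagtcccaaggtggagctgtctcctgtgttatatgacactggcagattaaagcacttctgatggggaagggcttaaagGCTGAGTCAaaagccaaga
Cadm4: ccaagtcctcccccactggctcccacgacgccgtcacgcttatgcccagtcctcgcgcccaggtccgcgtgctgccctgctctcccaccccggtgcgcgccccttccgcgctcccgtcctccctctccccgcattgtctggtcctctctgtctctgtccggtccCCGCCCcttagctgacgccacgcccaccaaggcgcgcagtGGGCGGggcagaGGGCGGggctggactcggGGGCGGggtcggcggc
The windows differed in composition, with 74.0% G and C in Cadm4, 59.2% in Cldn3, 54.4% in Pcdh17 and 40.8% in Slitrk6. The GC box GGGCGG occurred 4 times in Cadm4 and once in Cldn3, on its opposite strand. Slitrk6 held a single stretch that matches both the AP-1 letters TGANTCA and the antioxidant response letters TGACNNNGC, which can overlap. None of the letters searched was in the Pcdh17 window.

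A sequence was available for 23 of the 31 members, 4 of them higher and 17 lower, and not for Cldn4. GGGCGG was in 1 of the 4 windows of members that rose and in 8 of the 17 of members that fell, under the authors' scaling, and in 30.5% of all 33469 windows of the same length. TGANTCA was in 1 of 4 (Cdh20) and 1 of 17 (Slitrk6), beside 6.34% of all windows. TGACNNNGC was in 0 of 4 and 2 of 17, beside 10.1%. The TATA box TATAAA was in 0 of 4 and 1 of 17, Cdh19, beside 12.9%, and the amino acid response core TGATGNAA in none of either, beside 3.40%. These are matches of letters and not evidence of binding.

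Of 92 genes that act with these families (co-receptors, catenins, ankyrins, collapsin response mediators and the GTPase regulators below plexins and Eph kinases), 6 had a row, 5 of them lower and 1 higher under the authors' scaling. Met, the receptor of hepatocyte growth factor and a partner of B plexins, had 4936, 4458 and 4141 normalized reads with lidocaine and 1523, 1529.5 and 1479 in control, a 2.98-fold rise. Nrp1, the neuropilin through which class 3 semaphorins and VEGF signal, had 1377, 1388 and 1274 normalized reads with lidocaine and 3447, 3691 and 3788 in control, a 2.70-fold fall, and it stayed lower under both rescalings. The other 4 fell by 2.00-fold to 2.25-fold but had positive fold changes under either rescaling. They were Ngef, an exchange factor bound to Eph kinases, Vav3 and Kalrn, which are also exchange factors, and Ank3, the ankyrin that anchors L1-type molecules at the axon initial segment. The other 86 had no row.

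**Figure D4:**
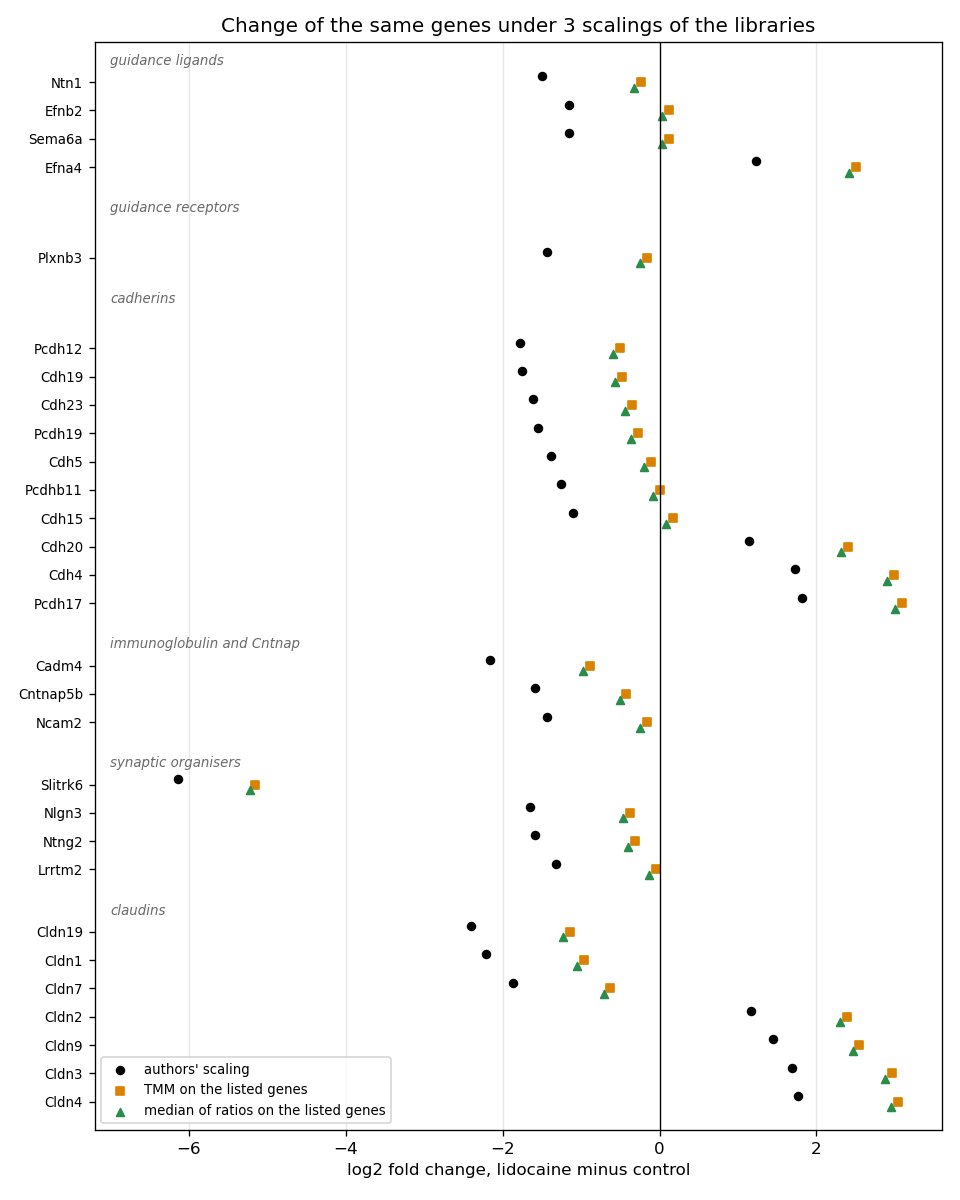
Log2 fold change of lidocaine minus control for the 29 tested members under the authors' scaling (black circles), TMM (orange squares) and the median of ratios (green triangles), the last 2 computed on the listed genes alone. The 8 members that rose stay right of 0 throughout, as the upward shift of both rescalings requires. Efnb2, Sema6a and Cdh15 cross 0 under both rescalings, Pcdhb11 touches it under TMM, and the other 17 stay left of 0.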

How the data were processed

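RNA-seq tables of 6 libraries were used, 3 from cultures treated with lidocaine and 3 untreated, grouped by the treatment label. The submitters' processing notes name Bowtie 0.12.2, DESeq2 and the builds rn6 and Rnor_6.0, with no role for each; neither counting tool nor annotation is named in the sources used. Per the file headers, both tables hold genes called significant. The deposited log2 values are log2 of normalized reads plus 1, normalized by the authors. FPKM values were deposited by the authors and used for levels between genes. The authors' deposited log2 fold changes and p-values were used only where named, and a pair of group-value columns in each table was not used.

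After the log step was undone, all values of each library were whole multiples of 1 factor (within 0.02 reads), which gave recovered reads. A minimum of 10 normalized reads on average was set (1851 of 2125 genes kept), and the groups were compared with limma 3.58.1 in R 4.3.3 (moderated test with trend, two-sided, no replicate block, Benjamini-Hochberg over the genes kept). Every fold change is a difference of log2(normalized reads + 1), so that changes of low genes are understated, and folds are antilogs of these. The limma comparison was first tested on simulated counts with known fold changes. TMM factors were computed from the recovered reads with 30% and 5% trims. Other alternatives covered the pseudocount, filter, FPKM (pseudocount 0.1), trend, threshold, a minimum fold, the replicate number as a block and leaving out single libraries; adjustment over all reference genes was added after the data were seen.

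Members, lists and the naming rule were chosen with earlier results of these data known. Values in every library were given for members that rose and averaged 50 or more normalized reads, for the 5 largest changes and 2 highest levels of each role group at that minimum, and for members at 0 throughout a group; others that are named, and the ratios within libraries, were chosen after their values were seen. Counting intervals and floors cover counting error only. Sequences and gene order come from RefSeq tables of GRCr8, where all 31 symbols were found; gene coordinates were not mixed with those of the files.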

Additional observations from a re-analysis of the deposited data

How the results depend on the processing

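Of 21 lower and 8 higher members, TMM left 11 lower and 9 higher and the median of ratios 14 lower and 8 higher; a test against a minimum 2-fold change left 17 lower and 4 higher. The partner genes, 5 lower and 1 higher, came to 1 lower and 3 higher under TMM, 1 lower and 2 higher under the median of ratios, and 2 lower and 1 higher under the minimum fold. Among all genes kept the share of lower calls was 43.8% under TMM and 48.2% under the median of ratios, against 68.9%; among members it was 55.0% and 63.6%, against 72.4%. The members' median log2 fold change, −1.44, was −0.16 under TMM, −0.25 under the median of ratios and −1.25 on FPKM. Of 4 members at least 4-fold lower, 1 was so under either rescaling, 3 on FPKM or with a pseudocount of 8, and 2 at a mean of at least 100 normalized reads. Both rescalings centre listed genes, most of which were lower. Log2 fold changes that turned positive were, under TMM and the median of ratios in that order, 0.12 and 0.025 for Efnb2, 0.12 and 0.034 for Sema6a, 0.17 and 0.084 for Cdh15, 0.12 and 0.031 for Vav3, 0.10 and 0.013 for Ngef, 0.27 and 0.18 for Kalrn, 0.19 and 0.10 for Ank3, and 0.0016 under TMM for Pcdhb11. Leaving out each library in turn gave 21 lower and 7 to 8 higher members and 5 lower and 1 higher partner genes. No other alternative moved these counts by over 1.5 times. The replicate numbers did not pair the libraries: the deviations of same-numbered libraries correlated at −0.0278, 0.00946 and 0.0578 across genes, and with the replicate block 21 members were lower and 8 higher. Ntn1, Cdh5, Pcdh19, Ncam2, Cntnap5b and Lrrtm2 are the other members whose calls a rescaling ended. The log2 fold change of Cldn9 was 0.81 with a pseudocount of 8 and that of Cntnap5b −0.64 on FPKM. The low read numbers of Cldn9, Cldn2, Cntnap5b, Unc5cl and Cdh26 limit what can be said of them.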

Other observations

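The authors' pathway annotation also places genes outside the families in the same pathways. Of 31 other listed genes annotated as cell adhesion molecules, 29 were tested, 28 were lower with lidocaine and 1 higher, with a median log2 fold change of −2.01, where 68.6% of all genes tested were lower and 30.9% higher. Under TMM and under the median of ratios 18 were lower and 1 higher. Of the 1851 genes tested, 491 were lower and 631 higher under TMM, and 550 and 592 under the median of ratios. They were mostly adhesion and antigen-presenting molecules of leukocytes and vessels, such as Vcam1, the endothelial ligand of leukocyte integrins, which fell 15.2-fold, Cd34, a sialomucin of vessels and progenitors, which fell 7.60-fold, and Ptprc, the pan-leukocyte phosphatase CD45, which fell 5.36-fold (limma). The one that rose was Cd2, by 2.29-fold. Of the 13 tested family members with this annotation 5 rose, 4 claudins and Cdh4, a share not far from the 30.9% of all genes tested. Cldn2 and Cldn9, among these claudins, had few reads. The difference between these groups was not tested.

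Of 13 other listed genes annotated to axon guidance, 10 were lower and 3 higher, a split near that of all genes tested, with a median log2 fold change of −1.17. Under both rescalings 4 were lower and 3 higher, and the median came to 0.088 under TMM and −0.00071 under the median of ratios. Over all genes tested, lower calls made up 43.8% of calls under TMM and 48.2% under the median of ratios. Rac2, a Rac GTPase of blood cells, fell 5.61-fold and Cxcl12, a chemokine that also guides axons, fell 5.08-fold, while Pak6, a protein kinase, rose 2.26-fold (limma). These genes were chosen after their values were seen.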
